A study of Homo sapiens with 2 samples.

Results

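The cells described here come from 3 human mammary epithelial lines and are told apart by 6 transcripts of G2 and mitosis. Each cell's UMIs (unique molecular identifiers, one per captured transcript) of TOP2A, MKI67, CCNB1, CDC20, UBE2C and CENPF were added to a sum, C. Within each line, cells with C of 5 or more, called marker-high, were compared with cells with C of 0, called marker-free, over all genes but these 6. The members were thus chosen by measured UMIs of the same cells. In all, 4033 of the 10336 barcodes entered the comparison. They were 321 marker-high and 881 marker-free cells of the 1636 kept C1-sgControl cells, 794 and 708 of the 2168 kept C1-sgEED cells, and 593 and 736 of the 2221 kept C1-sgKMT2D cells.

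All 3 lines come from C1, described by the submitters as a stably epithelial derivative of HMLER. HMLER are human mammary epithelial cells immortalised with telomerase and the SV40 early region and transformed with oncogenic HRAS. The SV40 large T antigen that all groups therefore carry is known to bind the RB proteins, which limits these lines as a model of normal cell cycle control. C1-sgControl carries a control guide, C1-sgEED a knockout of EED, which encodes the subunit of Polycomb complex PRC2 that reads its own mark, and C1-sgKMT2D a knockout of KMT2D, a histone H3 methyltransferase of enhancers. All lines were cultured in the same medium with insulin, EGF and hydrocortisone and received no other treatment per the labels. The lines were stained with hashtag antibodies 1, 3 and 4, pooled, and read as 1 10x Genomics 3' gene expression library with 1 hashtag library. The libraries are titled as a mixture of clones, with no statement of how many each line holds. Each line is thus 1 sample: differences below have no replicate check and no p-value, and all intervals are 95% intervals of counting error alone.

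Cells that enter the cycle first induce genes for DNA synthesis through E2F factors, then histones while DNA is copied, and last the cyclins, kinases and motors that condense, align and separate chromosomes. In resting cells the DREAM complex, which joins MuvB with an RB-like protein and a repressor E2F, holds these genes down. It reaches the late genes through a short promoter element called CHR, the cell cycle genes homology region. When cells progress, MuvB instead binds MYBL2 and FOXM1 at the same promoters, which often also hold CCAAT boxes for NF-Y. CDKN1A, the p21 inhibitor of cyclin-dependent kinases, favours the repressive state.

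Promoters are shown for the 4 genes with the highest lowest-of-3-lines ratio between marker-high and marker-free cells. The ranking took genes of at least 20 CPM with an entry in the table used. CPM are UMIs of a gene in 1000000 gene UMIs of the group. The sequences are RefSeq's, build GRCh38.p14, from 250 bases before to 50 bases after the first start listed for the gene, 5' to 3' on the strand of the gene. GTSE1 lies at chr22:46296620-46296919 (plus strand), HMMR at chr5:163460382-163460681 (plus strand), ASPM at chr1:197146620-197146919 (minus strand) and CCNA2 at chr4:121823834-121824133 (minus strand). Capitals mark matches to CHR (TTTGAA or TTCGAA) and to CCAAT, each on both strands.
GTSE1: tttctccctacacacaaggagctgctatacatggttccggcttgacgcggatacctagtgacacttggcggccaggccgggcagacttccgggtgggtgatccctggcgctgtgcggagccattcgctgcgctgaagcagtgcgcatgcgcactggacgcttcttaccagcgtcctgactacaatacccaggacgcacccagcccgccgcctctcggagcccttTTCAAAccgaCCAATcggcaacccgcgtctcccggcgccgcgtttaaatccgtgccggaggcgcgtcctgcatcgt
HMMR: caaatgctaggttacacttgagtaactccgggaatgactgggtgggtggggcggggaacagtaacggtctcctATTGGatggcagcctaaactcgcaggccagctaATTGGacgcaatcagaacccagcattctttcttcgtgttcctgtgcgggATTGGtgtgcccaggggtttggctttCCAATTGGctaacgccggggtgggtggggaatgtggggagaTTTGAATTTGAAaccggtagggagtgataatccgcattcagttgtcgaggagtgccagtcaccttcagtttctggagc
ASPM: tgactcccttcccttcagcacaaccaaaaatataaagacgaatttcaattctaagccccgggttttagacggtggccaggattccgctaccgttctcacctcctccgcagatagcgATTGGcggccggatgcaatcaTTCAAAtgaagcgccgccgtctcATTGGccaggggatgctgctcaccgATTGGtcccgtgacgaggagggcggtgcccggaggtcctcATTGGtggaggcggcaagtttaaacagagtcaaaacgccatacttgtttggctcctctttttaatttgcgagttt
CCNA2: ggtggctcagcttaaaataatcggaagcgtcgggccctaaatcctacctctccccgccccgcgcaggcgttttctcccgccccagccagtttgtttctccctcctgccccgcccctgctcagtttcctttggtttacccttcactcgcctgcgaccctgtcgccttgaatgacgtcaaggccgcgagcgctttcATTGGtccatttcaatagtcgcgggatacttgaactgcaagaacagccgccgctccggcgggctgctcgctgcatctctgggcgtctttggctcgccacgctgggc
GTSE1, a microtubule-binding protein, had its CHR match starting 26 bases before the start and a CCAAT match 16 bases before it. HMMR, a spindle and hyaluronan-binding protein, had 2 CHR matches in a row, at 28 and 22 bases before the start, and 5 CCAAT matches from 177 to 66 bases before it. In ASPM, a spindle pole protein, 1 CHR match lay 113 bases before the start among 4 CCAAT matches. The window of CCNA2, the cyclin of S phase and G2, held 1 CCAAT match 56 bases before the start and no match to these CHR letters.

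Among the 102 genes at least 4-fold higher in marker-high cells of all 3 lines, 87 had a promoter in the table. Of these 87, 60 (69.0%) held a CHR match, against 615 of 5492 (11.2%) of the genes measured in all 3 lines and 16.6% of all 27305 promoters. CCAAT was found in 62 of the 87 (71.3%), against 37.6% of measured genes, and both motifs in 47 (54.0%), against 5.12%. Matches to CHR lay near the start: 49 of the 87 promoters (56.3%) had one within 50 bases of it, against 3.51% of measured genes, and the median position was 23 bases upstream. An E2F motif (TTT, 2 letters that are C or G, then CGC, on both strands) was in 5 of the 87 (5.75%), close to the 5.90% of measured genes. The list of G1/S and DNA replication genes showed the other arrangement, with E2F letters in 27 of 57 promoters (47.4%) and CHR letters in 3 (5.26%). Of 66 genes with a promoter among those lower in all 3 lines, 3 (4.55%) held CHR letters. These are matches of letters, and no binding was measured.

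**Figure D1:**
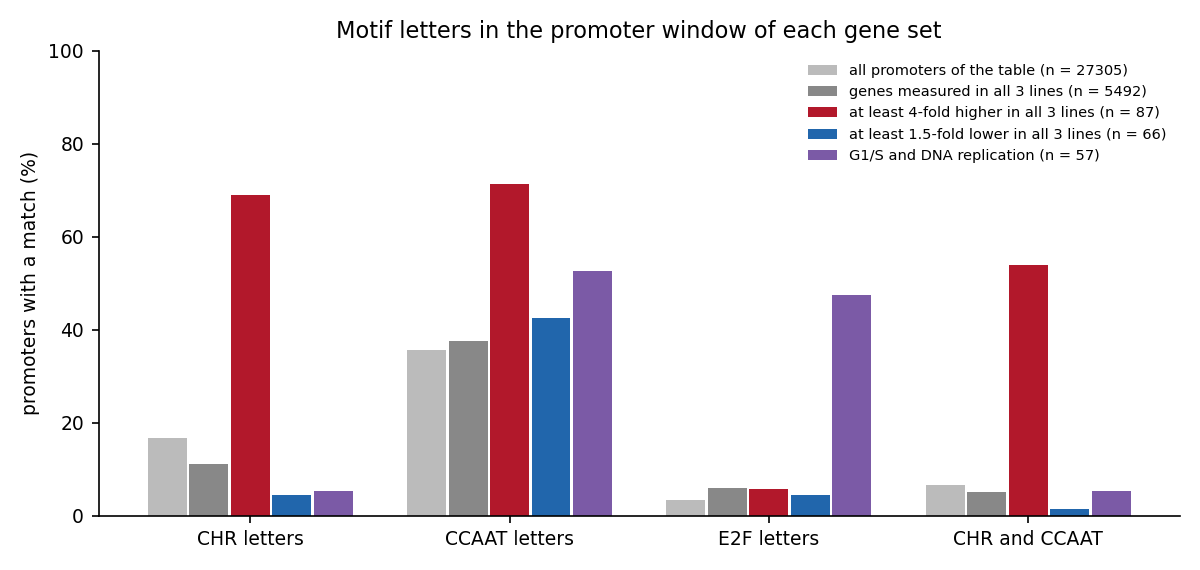
Share of promoter windows (vertical axis, percent, 250 bases before to 50 after the start) that hold each motif on either strand, in 5 sets of genes whose sizes are in the legend. CHR letters stand in 69.0% of the promoters of genes at least 4-fold higher in all lines and in 5.26% of G1/S promoters, while E2F letters stand in 5.75% and 47.4%.

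The rule chose its cells by the 6 genes, so the levels of these genes are a description. In marker-high cells UBE2C, the ubiquitin-conjugating enzyme of the anaphase-promoting complex, gave the most of C in C1-sgControl (24.7%) and C1-sgKMT2D (25.4%). In C1-sgEED the most came from CCNB1, the mitotic cyclin, with 23.5%. CENPF, a kinetochore protein, gave the least in C1-sgEED (8.85%), and CDC20, the activator of the anaphase-promoting complex, in the other two, with 9.69% and 9.65%. All 6 genes were seen in 98 of the 321 marker-high cells of C1-sgControl, 219 of the 794 of C1-sgEED and 234 of the 593 of C1-sgKMT2D, and the median C was 13, 11 and 16. Just inside the threshold were 27, 71 and 37 cells with C of 5, and just outside it 45, 92 and 53 cells with C of 4. Each gene was also read in cells with 5 or more UMIs of the other 5 genes against cells with none of them. The ratio ran from 19.3-fold (CCNB1) to 82.1-fold (TOP2A) in C1-sgControl, from 15.3-fold (CDC20) to 32.1-fold (UBE2C) in C1-sgEED and from 11.6-fold (CDC20) to 35.2-fold (MKI67) in C1-sgKMT2D.

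The targeted genes were read first. EED was at 17.5 against 10.8 CPM in C1-sgControl, 13.2 against 10.7 CPM in C1-sgEED and 17.5 against 14.5 CPM in C1-sgKMT2D. KMT2D stayed under the floor in all lines, at 7.34 against 4.92 CPM in C1-sgKMT2D. A 3' tag outside an edit checks little, and the labels do not say where the guides cut.

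Marker-high cells had more UMIs. Their median depth was 7084 UMIs against 5390 in marker-free cells of C1-sgControl, 4749.5 against 3782.5 in C1-sgEED and 7427 against 4456.5 in C1-sgKMT2D. The median mitochondrial share of UMIs was 7.89% against 8.43%, 7.22% against 8.23% and 7.82% against 8.66%. A deeper cell reaches a C of 5 more easily, and the part of this in the depth difference was not tested. Barcodes whose top hashtag was under 10 times the next were removed (979 barcodes), and doublets within a line cannot be seen this way and were left in. Of the markers of other cell types, 7 to 9 of 11 immune, 4 or 5 of 7 endothelial and 3 or 4 of 7 neural genes were at 0 in both groups of a line, with PTPRC, LYZ and VWF among those at 0 in all groups. The summed level of the immune list was 12.2 to 16.2 CPM in marker-high and 17.8 to 23.2 CPM in marker-free groups, that of the endothelial list at most 1.44 CPM, and that of the neural list 44.1 to 55.9 CPM and 42.6 to 51.2 CPM. The pool held no cell type that should lack the genes of C, so the part of free RNA in C was not tested.

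Marker-high cells made up 19.6% (17.7 to 21.6%) of kept C1-sgControl cells, 36.6% (34.6 to 38.7%) of C1-sgEED cells and 26.7% (24.9 to 28.6%) of C1-sgKMT2D cells. C1-sgEED had the highest share although its cells were the shallowest, with a median of 4081 UMIs over all kept cells against 5818.5 and 5709. With every cell thinned to 2000 UMIs, the shares were 8.80% (7.47 to 10.3%), 21.2% (19.5 to 23.0%) and 13.3% (11.9 to 14.8%). In cells of at least 5000 UMIs thinned to 5000 they were 21.7%, 47.1% and 30.4%, over 1049, 686 and 1337 cells, out of 1636, 2168 and 2221 kept cells, the shallower ones being left out. C1-sgEED stayed above the other lines in each depth class up to 9000 UMIs, with intervals that did not meet theirs. Between 9000 and 14000 UMIs the shares were 49.1%, 60.7% and 54.9%, and their intervals overlapped. C1-sgControl and C1-sgKMT2D overlapped in 3 of the 5 depth classes drawn, and C1-sgKMT2D lay higher between 3000 and 4500 UMIs (14.7% against 7.38%) and between 6000 and 9000 UMIs (30.4% against 21.9%).

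The lines hold epithelial and mesenchymal cells in different proportions. The mesenchymal range holds cells whose mesenchymal list UMIs make up over 0.424 of the UMIs of the mesenchymal and epithelial lists, the 99th percentile of C1-sgControl. The other cells form the epithelial range. In C1-sgEED they were 41.0% (38.0 to 44.2%) of mesenchymal-range and 32.8% (30.1 to 35.6%) of epithelial-range cells, and in C1-sgKMT2D 22.6% (20.005 to 25.3%) and 29.97% (27.4 to 32.6%). Cells thinned to 2000 UMIs had C of 3 or more in 38.6% and 28.4% of the ranges of C1-sgEED and in 18.8% (16.4 to 21.4%) and 20.8% (18.6 to 23.2%) of those of C1-sgKMT2D. After thinning the order held in C1-sgEED, and the intervals overlapped in C1-sgKMT2D. In C1-sgControl 17 cells lay in the mesenchymal range, 3 of them marker-high.

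**Figure D2:**
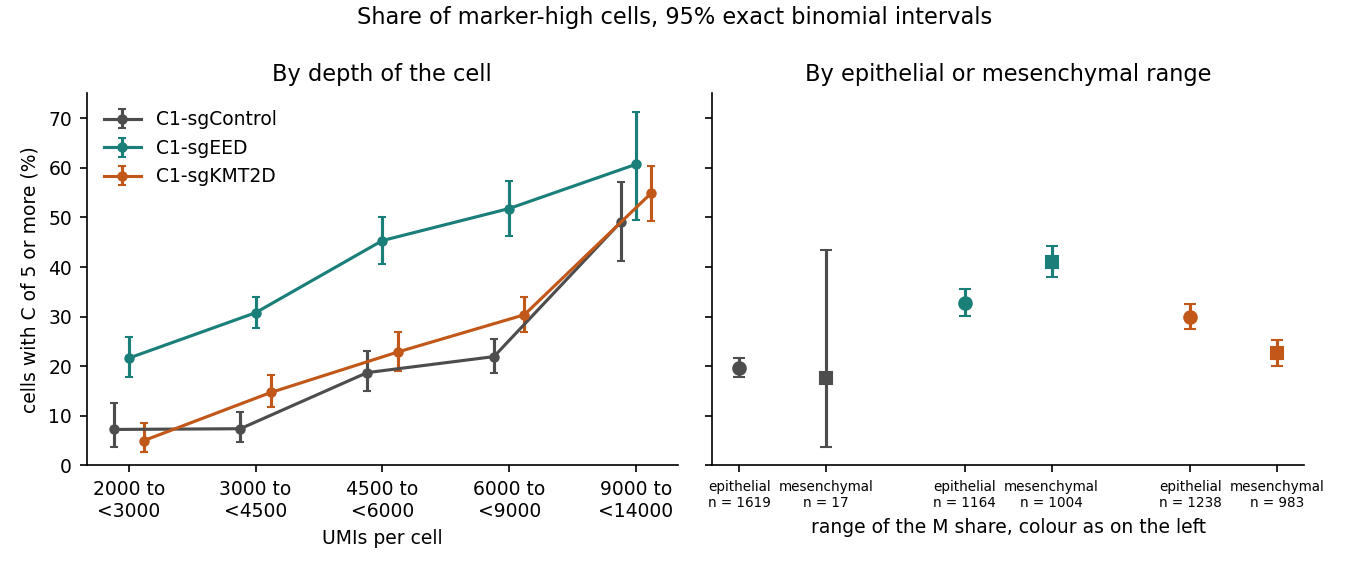
Left, share of kept cells with C of 5 or more (vertical axis, percent) by UMIs per cell in each line. Right, the same share in cells of the epithelial and the mesenchymal range of each line, with the number of cells. Bars are exact binomial 95% intervals. C1-sgEED lies highest at every depth drawn, and marker-high cells are more frequent in its mesenchymal range (41.0%) than in its epithelial range (32.8%), the reverse of C1-sgKMT2D (22.6% and 29.97%).

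Genes were compared as CPM of the summed UMIs of each group. A gene counted as measured where the mean of both groups was at least 10 CPM, and as higher or lower where the ratio of CPM plus 1 was at least 1.5-fold. In C1-sgControl 1300 of 7395 measured genes (17.6%) were higher in marker-high cells and 409 (5.53%) lower. In C1-sgEED 927 of 7482 (12.4%) were higher and 471 (6.30%) lower, and in C1-sgKMT2D 944 of 7085 (13.3%) were higher and 287 (4.05%) lower. The median log2 ratio over all measured genes was 0.19, 0.12 and 0.17, so most genes sat slightly above 0 and list medians below are to be read against it. After centring on that median the split of higher to lower became 727 to 729 in C1-sgControl, 636 to 668 in C1-sgEED and 514 to 520 in C1-sgKMT2D. TMM factors gave 725 to 724, 764 to 556 and 647 to 403. The excess of higher over lower genes thus changed with the scaling. At least 4-fold higher were 157, 113 and 114 genes, and at least 4-fold lower 13, 14 and 5. Genes of the same cells chose the groups, so the counts and medians below are a description. Counts of list members are to be read against the shares of all measured genes given above.

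The mitotic kinases, cyclins and their regulators formed one of the strongest groups. Of 34 genes, 28 of 31 measured were higher in C1-sgControl (median log2 ratio 3.88), 27 of 30 in C1-sgEED (3.50) and 26 of 29 in C1-sgKMT2D (3.52), and none was lower. As 23, 19 and 16 of them passed the floor through the marker-high group alone, a low level in marker-free cells was built into those counts. CCNA2 (chromosome 4, 121816444 to 121823933, minus strand) was at 113 CPM in marker-high and 0.828 CPM in marker-free C1-sgControl cells, at 135 against 3.68 CPM in C1-sgEED and at 139 against 2.19 CPM in C1-sgKMT2D. That is 137-fold (52.7 to 505), 36.8-fold (20.4 to 74.2) and 63.3-fold (31.9 to 147). The folds rest on few UMIs of marker-free cells: C1-sgControl had 4, C1-sgEED 11 and C1-sgKMT2D 8. CDK1, partner of the mitotic cyclins, stood at 150 against 8.07 CPM, 247 against 16.7 CPM and 290 against 16.9 CPM.

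AURKA, a spindle pole kinase, was at 265 against 9.32 CPM in C1-sgControl, 258 against 10.0 CPM in C1-sgEED and 346 against 13.4 CPM in C1-sgKMT2D, a 25.7- to 28.5-fold ratio. PLK1, the Polo kinase of mitotic entry and exit, was at 141 against 3.93 CPM, 145 against 5.69 CPM and 93.4 against 3.01 CPM. AURKB, the kinase of the chromosomal passenger complex, was 34.3-fold (20.1 to 63.8), 32.5-fold (18.9 to 61.4) and 26.7-fold (16.5 to 46.1) higher. PLK1 was lowest and AURKA highest in the marker-high cells of C1-sgKMT2D, and these differences between lines have no replicate check. CDC25B, a phosphatase that activates CDK1, moved far less, with log2 ratios of 1.44, 0.92 and 0.92. WEE1, the kinase that holds CDK1 inactive, did not reach 1.5-fold in any line (log2 ratios 0.24, 0.15 and -0.17).

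The spindle, kinesin and cytokinesis list, of 37 genes, had high ratios throughout, with 37 of 37 measured genes higher in C1-sgControl, 36 of 36 in C1-sgEED and 37 of 37 in C1-sgKMT2D, with medians of 4.08, 3.69 and 3.56. Of these, 31, 25 and 25 passed the floor through the marker-high group alone and could not be lower, so the counts are no support by themselves. The summed level of the list was 3357 against 207 CPM, 3759 against 294 CPM and 3803 against 318 CPM. HMMR was at 131 against 2.28 CPM, 174 against 2.34 CPM and 118 against 2.73 CPM, and ASPM at 185 against 2.69 CPM, 185 against 2.68 CPM and 208 against 5.74 CPM. DLGAP5, which stabilises kinetochore fibres, had log2 ratios of 5.72, 5.37 and 4.52. DEPDC1 was 148-fold higher (49.9 to 722) in C1-sgControl, where marker-free cells were at 0.621 CPM, and 28.0-fold and 31.8-fold higher in the knockouts. The smallest ratios of the list still passed 3-fold, as for CKAP5, a microtubule polymerase, at 72.6 against 20.7 CPM, 72.2 against 20.7 CPM and 103 against 19.7 CPM.

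Tubulins stood high in both groups and changed by less. Of 12 measured members of the list of tubulins and microtubule binding proteins, 9, 9 and 10 were higher. TUBB4B was at 1316 against 248 CPM, 1418 against 279 CPM and 1193 against 183 CPM, and TUBA1C at 894 against 229 CPM, 891 against 274 CPM and 792 against 200 CPM. Tubulin genes have close copies, so the counts of single members are uncertain. MAP4, a microtubule-associated protein, had log2 ratios of 0.10, -0.17 and -0.10.

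The kinetochore and centromere list had 28 of 29, 29 of 33 and 28 of 32 measured genes higher and none lower, with medians of 2.72, 1.77 and 1.73. Of the measured genes 16, 15 and 14 passed the floor through the marker-high group alone. NUF2, of the complex that holds microtubule ends, was at 96.9 against 2.48 CPM, 136 against 2.68 CPM and 136 against 6.01 CPM. CENPA, the histone H3 variant of centromeres, was at 98.2 against 1.86 CPM, 127 against 5.69 CPM and 139 against 4.10 CPM. Of the chromosome structure and chromatin list 28, 27 and 28 of 31 measured genes were higher, with medians of 1.73, 1.38 and 1.44. NCAPG, a condensin subunit, was at 83.7 against 0.828 CPM, 96.6 against 7.03 CPM and 81.6 against 2.46 CPM. It passed the floor through the marker-high group alone in each line, so the floor set part of this list's counts too. HMGB2, a chromatin protein of proliferating cells, was 18.4-fold, 9.29-fold and 9.53-fold higher, while STAG2, a cohesin subunit, had log2 ratios of 0.35, -0.01 and 0.17.

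Of the subunits and partners of the anaphase-promoting complex 9, 7 and 5 of 15 measured genes were higher. UBE2S, the enzyme that extends its ubiquitin chains, was at 589 against 66.9 CPM, 911 against 117 CPM and 959 against 95.1 CPM. PTTG1 (securin), a substrate of the complex counted with the chromosome structure list, was 5.89-fold, 4.38-fold and 6.55-fold higher, and FBXO5, the interphase inhibitor of the complex, 7.59-fold, 4.81-fold and 6.36-fold. In C1-sgControl FBXO5 passed the floor through the marker-high group alone, so the floor set part of the counts of this list too. Of the core subunits, CDC27 was 1.99-fold (1.53 to 2.59), 2.62-fold (1.99 to 3.49) and 2.66-fold (2.04 to 3.49) higher, and ANAPC16 had log2 ratios of -0.06, 0.03 and 0.29. In the list of DREAM, MuvB and E2F factors, 4 of 10, 5 of 11 and 3 of 11 measured genes were higher. FOXM1 was at 57.6 against 3.52 CPM, 50.1 against 8.36 CPM and 56.1 against 5.74 CPM, and MYBL2 at 88.4 against 7.04 CPM, 79.1 against 19.7 CPM and 107 against 22.7 CPM. FOXM1 in each line and MYBL2 in C1-sgControl passed the floor through the marker-high group alone. RB1 had log2 ratios of 0.44, 0.31 and 0.24.

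**Figure D3:**
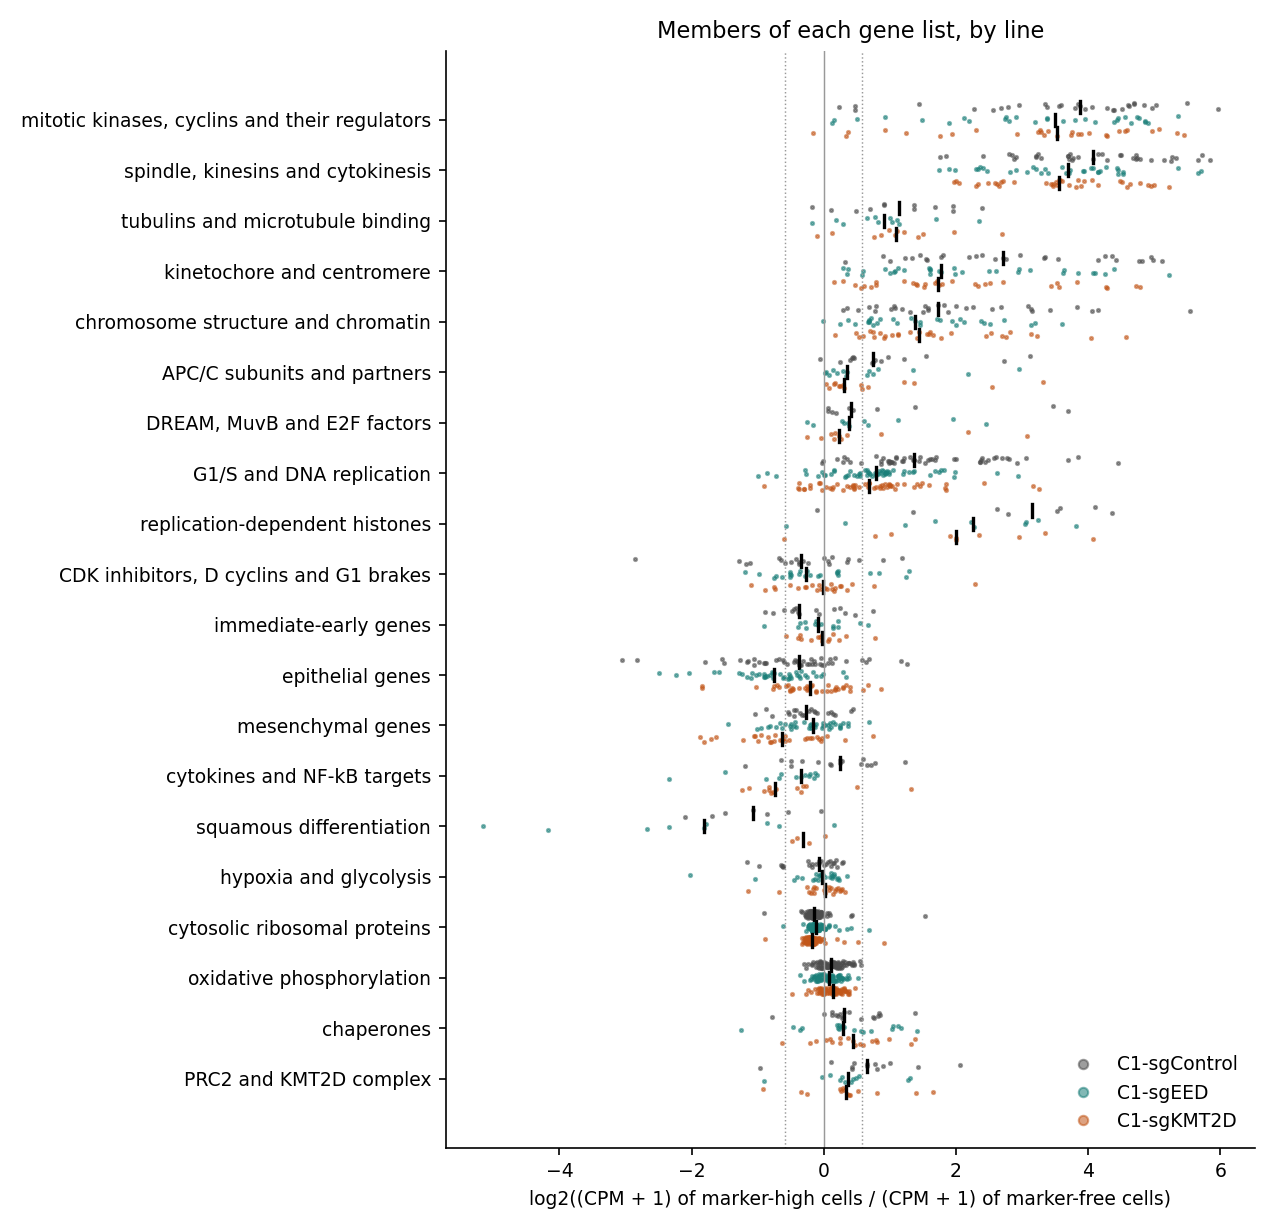
Log2 ratio of marker-high over marker-free cells (horizontal axis) for each measured member of 20 gene lists, 1 point per gene in each line. Black bars are list medians and dotted lines 1.5-fold. Spindle genes lie at medians of 4.08, 3.69 and 3.56 and ribosomal protein genes at -0.15, -0.12 and -0.18. Squamous genes lie at -1.07, -1.81 and -0.31 and epithelial genes at -0.38, -0.75 and -0.21. In C1-sgKMT2D the mesenchymal (-0.64) and cytokine (-0.74) medians lie further left than these.

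Genes of the G1/S transition and DNA replication were higher as well, by smaller factors. In C1-sgControl 46 of 54 measured genes were higher and none lower, in C1-sgEED 37 of 58 were higher and 3 lower, and in C1-sgKMT2D 31 of 56 were higher and 1 lower, with medians of 1.37, 0.78 and 0.68. Of these 20, 9 and 7 passed the floor through the marker-high group alone. RRM2, the subunit of ribonucleotide reductase that limits nucleotide supply, was at 171 against 6.83 CPM, 191 against 24.1 CPM and 166 against 16.4 CPM. TK1, thymidine kinase, was 7.04-fold, 2.59-fold and 3.67-fold higher. PCNA, the sliding clamp of DNA polymerase, was at 164 against 76.2 CPM, 164 against 124 CPM and 145 against 93.5 CPM. The marker-free groups of the knockouts were above that of C1-sgControl in all of these genes. Marker-free cells of C1-sgEED and C1-sgKMT2D were also shallower, at medians of 3782.5 and 4456.5 UMIs against 5390 in C1-sgControl. A shallower cell has a C of 0 more easily, and the part of depth in this order was not tested.

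The lower genes of the list were UNG, MSH6 and CDCA7 in C1-sgEED and UNG in C1-sgKMT2D. UNG, which removes uracil from DNA, was at 17.9 against 15.5 CPM in C1-sgControl, 12.5 against 23.4 CPM in C1-sgEED and 10.8 against 21.1 CPM in C1-sgKMT2D. MSH6, of mismatch repair, was 2.03-fold (1.597 to 2.58) lower in C1-sgEED and CDCA7, an E2F and MYC target, 1.69-fold (1.25 to 2.30) lower, with log2 ratios of -0.03 and 0.29 in C1-sgControl. The helicase subunit MCM6 did not reach 1.5-fold in any line (log2 ratios 0.56, -0.08 and -0.30). Leaving MKI67 out of C took the median of the list in C1-sgEED from 0.78 to 0.57, and weighting marker-free cells by depth took it in C1-sgKMT2D from 0.68 to 0.57.

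Replication-dependent histones, whose transcripts mostly lack a poly(A) tail and are caught only in part by oligo-dT priming, were also higher. Of 71 genes in the matrix, 8, 10 and 10 were measured, of which 7, 8 and 9 were higher and 0, 0 and 1 lower, with medians of 3.15, 2.25 and 1.99, and 5 in each line passed the floor through the marker-high group alone. HIST1H4C was at 676 against 58.0 CPM, 700 against 84.0 CPM and 786 against 101 CPM. HIST1H1A was at 49.1 against 1.45 CPM, 50.6 against 2.68 CPM and 57.2 against 2.46 CPM. The lower one in C1-sgKMT2D was HIST3H2A. Histone genes are known to be transcribed while DNA is copied, so these values go against the name mitotic for the whole group, which is called by its rule here. Histone genes have close copies, so single members are uncertain.

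Levels were also read over classes of C, the value that chose the cells, so they are a description of the rule's own ordering. PLK1 went from 3.93 CPM at C of 0 to 37.5 CPM at 5 to 9, 125 CPM at 10 to 19 and 247 CPM at 20 or more in C1-sgControl, and to 238 CPM and 143 CPM in the highest class of C1-sgEED and C1-sgKMT2D. HMMR climbed in the same way, to 205, 281 and 189 CPM. RRM2 had reached 141 CPM at C of 3 to 4 in C1-sgControl and stood at 172, 168 and 173 CPM in the 3 classes above. PCNA peaked at C of 5 to 9 in C1-sgControl (264 CPM) and C1-sgKMT2D (173 CPM) and at 3 to 4 in C1-sgEED (203 CPM), and was at 91.7, 141 and 115 CPM in the highest class, for C1-sgControl and then the knockouts of EED and KMT2D. HIST1H4C peaked at 873 CPM at C of 5 to 9 in C1-sgControl, and at 10 to 19 in C1-sgEED (804 CPM) and C1-sgKMT2D (888 CPM). UNG was highest at 5 to 9 in C1-sgControl (33.6 CPM) and fell below its marker-free level in the class of 20 or more in all lines, at 4.64, 7.62 and 4.58 CPM. The median depth of a cell grew with C as well, from 5390 to 8592 UMIs in C1-sgControl.

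**Figure D4:**
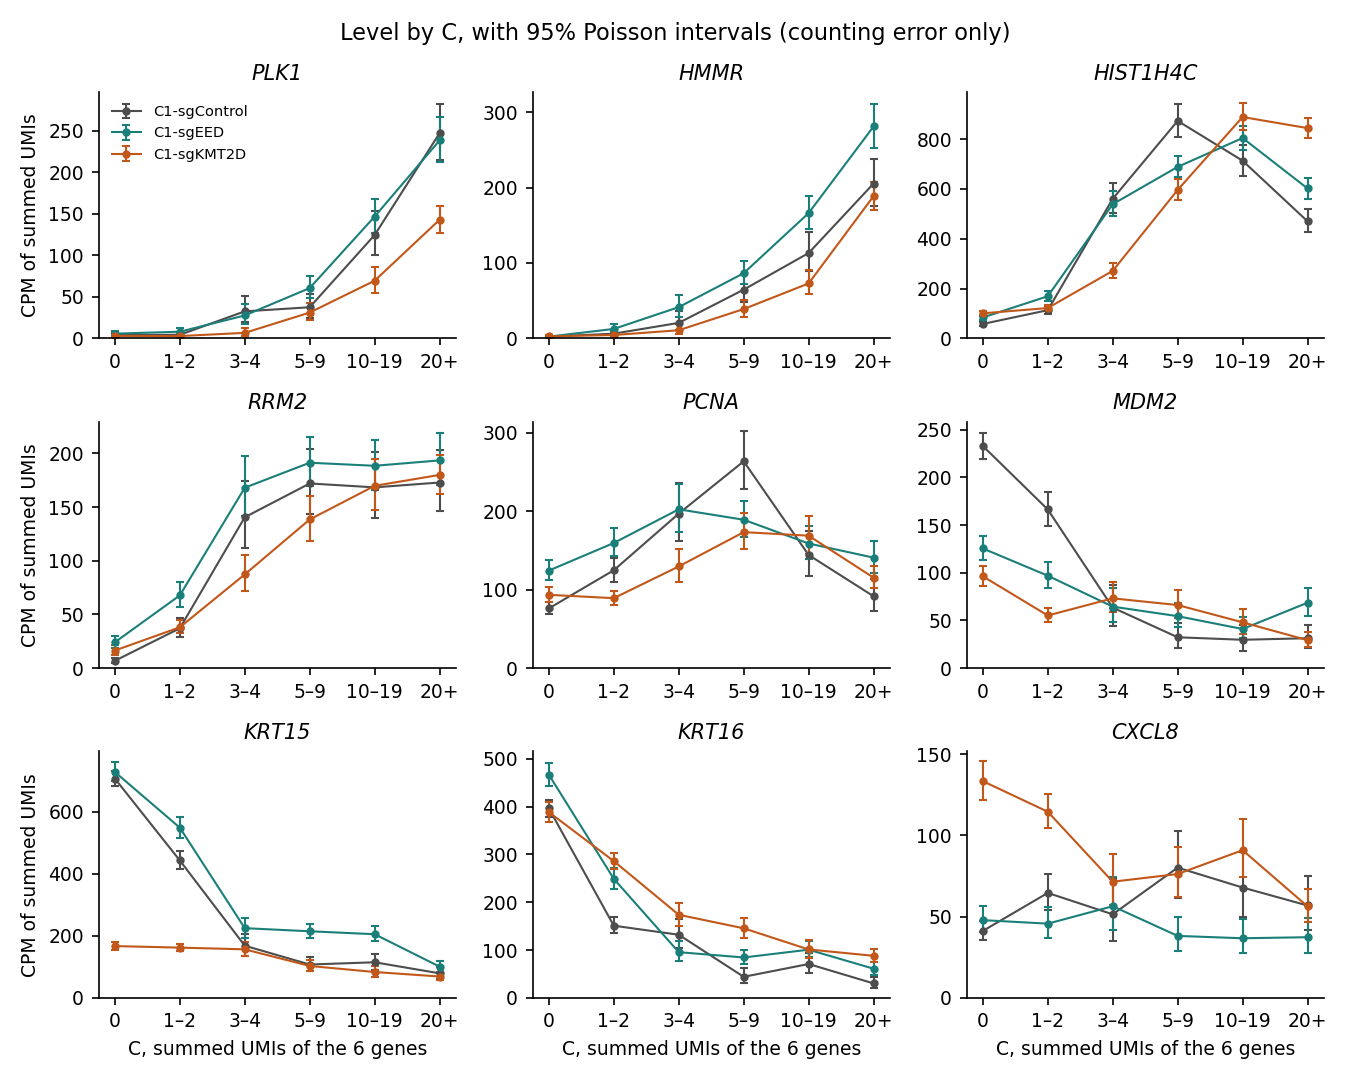
Level of 9 genes (vertical axis, CPM of summed UMIs, each panel from 0) over classes of C in the 3 lines, with Poisson 95% intervals that cover counting error only. PLK1 and HMMR climb up to the highest class, PCNA and HIST1H4C peak below that class in all 3 lines, and KRT15, KRT16 and MDM2 are highest in cells with C of 0 in all 3 lines.

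A split of the marker-high cells by CDC20 was chosen after the values were seen and uses a gene of C, so its values are a description and support nothing. Cells with 2 or more CDC20 UMIs numbered 135, 361 and 319, and cells with none 96, 207 and 151, at median depths of 7123 and 6944.5 UMIs, 4966 and 4545 UMIs, and 7909 and 6935 UMIs. Of the spindle list 22, 12 and 30 of 37 genes were at least 1.5-fold higher with CDC20, against 10.2%, 5.20% and 5.98% of all measured genes. Of the G1/S list 27 of 62, 20 of 62 and 32 of 60 were lower, against 7.66%, 5.67% and 5.81% of all genes, and of the histones 8 of 10, 9 of 12 and 7 of 11. PCNA was at 113 against 252 CPM, 125 against 225 CPM and 113 against 227 CPM, and HIST1H4C at 386 against 1027 CPM, 414 against 1179 CPM and 630 against 1075 CPM. RRM2 differed little, with log2 ratios of -0.24, -0.42 and -0.13.

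Keratins were among the genes on the lower side. Of 12 measured keratin genes, a set named after the lower genes were seen, 8, 8 and 5 were lower in marker-high cells and none was higher. KRT16, a keratin of activated and wounded epithelium, was at 47.0 against 396 CPM in C1-sgControl, 82.5 against 467 CPM in C1-sgEED and 107 against 388 CPM in C1-sgKMT2D. It was 8.44-fold (6.96 to 10.3), 5.66-fold (5.03 to 6.39) and 3.62-fold (3.27 to 4.02) lower. KRT15, a keratin of basal cells, was at 99.1 against 706 CPM, 175 against 728 CPM and 81.8 against 167 CPM. KRT17 was 2.42-fold, 2.44-fold and 1.69-fold lower and KRT6B 3.50-fold, 4.84-fold and 3.66-fold, while KRT18, a simple-epithelium keratin, had log2 ratios of 0.33, -0.01 and 0.29. Keratins of one type have close copies, KRT16, KRT17 and KRT14 among them, whose reads the counting could split.

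The epithelial list as a whole had 4 higher and 18 lower of 47 measured genes in C1-sgControl, 0 and 25 of 43 in C1-sgEED, and 3 and 7 of 40 in C1-sgKMT2D, with medians of -0.38, -0.75 and -0.21. DSG3, a desmosomal cadherin, was at 35.02 against 104 CPM, 16.3 against 53.9 CPM and 31.3 against 45.9 CPM. EPCAM, an adhesion molecule of epithelial cells, went the other way in C1-sgControl, at 92.7 against 38.3 CPM. Squamous differentiation genes were lower in 5 of 7 measured genes in C1-sgControl, 8 of 9 in C1-sgEED and none of 4 in C1-sgKMT2D. Of the measured genes 1, 5 and 0 passed the floor through the marker-free group alone and could not be higher. SPRR1B, a precursor of the cornified envelope, was at 44.8 against 194 CPM in C1-sgControl and 9.59 against 66.6 CPM in C1-sgEED. In C1-sgKMT2D it was at 3.02 against 11.2 CPM, under the floor, and was not among the genes counted there. CRCT1, a late epidermal gene, was at 1.44 against 42.8 CPM in C1-sgEED. S100A8, a calcium-binding alarmin, was 2.84-fold and 5.26-fold lower in C1-sgControl and C1-sgEED and did not reach 1.5-fold in C1-sgKMT2D.

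Among CDK inhibitors, D cyclins and G1 brakes, 2 higher and 6 lower of 22 measured genes stood in C1-sgControl, 4 and 5 of 24 in C1-sgEED, and 2 and 4 of 24 in C1-sgKMT2D. Of all measured genes 17.6%, 12.4% and 13.3% were higher and 5.53%, 6.30% and 4.05% lower. CDKN1A (p21) was at 148 against 321 CPM, 138 against 228 CPM and 112 against 187 CPM, which is 2.16-fold (1.93 to 2.44), 1.66-fold (1.48 to 1.86) and 1.68-fold (1.496 to 1.89) lower. BTG2, an antiproliferative factor, was 2.32-fold, 1.58-fold and 1.92-fold lower. CDKN2D (p19) and CDKN1B (p27), both inhibitors of cyclin-dependent kinases, were instead higher, CDKN2D 2.38-fold, 2.53-fold and 5.46-fold and CDKN1B 1.96-fold, 1.69-fold and 1.76-fold. CDKN2A, which encodes p16 and ARF, had log2 ratios of 0.06, -0.21 and 0.02, and the D cyclin CCND1 of -0.31, -0.38 and -0.29.

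MDM2 (chromosome 12, 68808176 to 68850686, plus strand), a ubiquitin ligase, was at 31.2 against 233 CPM in C1-sgControl, 54.4 against 125 CPM in C1-sgEED and 44.2 against 96.2 CPM in C1-sgKMT2D. It was 7.47-fold (5.89 to 9.60), 2.31-fold (1.95 to 2.73) and 2.18-fold (1.83 to 2.60) lower. The lines differed most in marker-free cells. GDF15, a stress cytokine, was at 20.9 against 94.2 CPM, 90.9 against 173 CPM and 45.1 against 113 CPM. In classes of C, MDM2 in C1-sgControl went from 233 CPM at 0 to 166 CPM at 1 to 2, 63.4 CPM at 3 to 4 and 32.3 CPM at 5 to 9.

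Other genes lower in all 3 lines were SUGCT, an enzyme of glutarate metabolism, at 23.1 against 123 CPM, 22.8 against 83.0 CPM and 8.41 against 46.2 CPM, and CITED2, a transcriptional coregulator, at 14.1 against 40.0 CPM, 31.6 against 93.0 CPM and 31.1 against 103 CPM. NUPR1, a stress-induced nuclear protein, was 6.499-fold, 3.36-fold and 1.79-fold lower. TXNIP, an inhibitor of thioredoxin and of glucose uptake, was 3.15-fold, 1.91-fold and 1.87-fold lower. In all, 90 of the 6601 genes measured in every line were lower in all 3 and 409 were higher in all 3.

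Mesenchymal genes were read in all 3 lines. Of the mesenchymal list 0 higher and 3 lower of 22 measured genes stood in C1-sgControl, 1 and 9 of 41 in C1-sgEED and 1 and 17 of 31 in C1-sgKMT2D, with medians of -0.27, -0.17 and -0.64. COL3A1, a fibrillar collagen, was at 61.4 against 87.0 CPM in C1-sgEED and 26.1 against 94.0 CPM in C1-sgKMT2D. FN1, fibronectin, was at 2163 against 2718 CPM, 2120 against 3289 CPM and 1375 against 2309 CPM. VIM, the mesenchymal intermediate filament, had log2 ratios of -0.15, 0.24 and -0.20. The share of mesenchymal-range cells was 37.4% in marker-high against 52.4% in marker-free cells of C1-sgKMT2D and 51.9% against 42.9% in C1-sgEED, and its part in these values was not tested. In C1-sgKMT2D, weighting marker-free cells by depth took the list median from -0.64 to -0.28 and the log2 ratio of COL3A1 from -1.81 to -0.49.

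Within the ranges, compared without the genes of both lists, the spindle genes had medians close to those of the whole lines. They were 3.70 and 3.69 in the epithelial and mesenchymal range of C1-sgEED and 3.60 and 3.57 in those of C1-sgKMT2D, and most of the measured genes passed the floor through the marker-high group alone. Over all genes 14.5% and 16.5% were higher in the ranges of C1-sgEED and 13.1% and 22.2% in those of C1-sgKMT2D, while 6.79%, 7.98%, 3.60% and 6.80% were lower. Squamous genes were lower in 11 of 13 measured genes in the epithelial range of C1-sgEED (median -2.41), 8 of which passed the floor through marker-free cells alone, and in 0 of 3 in its mesenchymal range. MDM2 was at 66.4 against 165 CPM in the epithelial range of C1-sgEED and at 41.1 against 51.6 CPM in its mesenchymal range, but at 48.0 against 108 CPM and 36.5 against 80.4 CPM in the ranges of C1-sgKMT2D. CLSPN, the replication checkpoint adaptor, was at 59.1 against 5.66 CPM and 117 against 50.6 CPM in the ranges of C1-sgEED, so marker-free cells of its mesenchymal range had more of it. Those cells were shallower, at a median of 3104 UMIs against 4323 in marker-free cells of the epithelial range. The part of depth in the CLSPN level was not tested.

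Keratin levels in the ranges are a description, as the list helped to set them. KRT16 was at 144 against 703 CPM in the epithelial range of C1-sgEED and at 149 against 659 CPM in that of C1-sgKMT2D, so its difference stood within epithelial-range cells. In the mesenchymal ranges it was at 14.2 against 27.7 CPM and 20.6 against 22.5 CPM. KRT17 was at 5817 against 11788 CPM in the epithelial range of C1-sgKMT2D and at 909 against 862 CPM in its mesenchymal range. The matrix genes COL3A1 and MGP were lower in mesenchymal-range cells, at 127 against 245 CPM and 329 against 1230 CPM in C1-sgEED, and 73.6 against 219 CPM and 19.9 against 61.1 CPM in C1-sgKMT2D. In C1-sgKMT2D the value of MGP changed with depth: over all cells the log2 ratio of MGP was -1.87, and it was 0.65 among cells of 4000 to 10000 UMIs.

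The cytokines and NF-kB targets were counted in each line, with no test of a difference between lines. In C1-sgControl 5 of 17 measured genes were higher and 2 lower (median 0.24, beside 0.19 over all genes), in C1-sgEED 0 and 5 of 13 (median -0.35) and in C1-sgKMT2D 1 and 8 of 14 (median -0.74). CXCL8, the neutrophil attractant interleukin 8, was at 67.9 against 41.2 CPM in C1-sgControl, 37.4 against 47.8 CPM in C1-sgEED and 70.5 against 133 CPM in C1-sgKMT2D. CXCL1, a related chemokine with close copies, was at 137 against 92.7 CPM, 17.0 against 23.1 CPM and 97.1 against 231 CPM. LTB, lymphotoxin beta, was at 335 against 143 CPM in C1-sgControl, 27.3 against 33.5 CPM in C1-sgEED and 15.7 against 5.74 CPM in C1-sgKMT2D, where its log2 ratio was 1.31 and, in the mesenchymal range alone, -0.41. In C1-sgKMT2D LTB passed the floor through the marker-high group alone and could not be counted as lower. Outside the list, TNFAIP6 and PTX3, secreted matrix-binding proteins of inflammation, were at 19.6 against 92.9 CPM and 12.5 against 65.9 CPM in C1-sgKMT2D. Weighting marker-free cells by depth took their log2 ratios from -2.19 to -1.003 and from -2.31 to -0.70, and that of PTX3 was -0.45 in the epithelial range. In the mesenchymal range of C1-sgKMT2D 7 of 14 genes were lower, and in its epithelial range 2 of 12. Weighting marker-free cells by depth took the median of the list in C1-sgKMT2D to -0.17, and the log2 ratio of CXCL8 there from -0.91 to -0.33. In C1-sgControl the log2 ratio of CXCL8 was 0.71, and 0.52 after median centring, under 1.5-fold.

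EZH2, the catalytic subunit of PRC2 and an E2F target, was 2.89-fold, 2.52-fold and 2.77-fold higher in marker-high cells, and PHF19, a PRC2 accessory subunit, 4.30-fold, 2.50-fold and 3.17-fold. JARID2, another accessory subunit, was 1.98-fold (1.51 to 2.62) and 1.93-fold (1.43 to 2.61) lower in C1-sgControl and C1-sgEED. The list had 8 higher and 1 lower of 13 measured genes in C1-sgControl, 2 and 1 of 12 in C1-sgEED and 3 and 1 of 14 in C1-sgKMT2D. In C1-sgControl EZH2 passed the floor through the marker-high group alone, so the floor set part of these counts. Over all measured genes 17.6%, 12.4% and 13.3% were higher and 5.53%, 6.30% and 4.05% lower.

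Ribosomal and respiratory genes had medians near 0. Of 83 measured ribosomal protein genes 1 was higher and 1 lower in each line, with medians of -0.15, -0.12 and -0.18. RPL39L, a ribosomal protein paralog, was the higher one, at 66.6 against 22.4 CPM, 65.4 against 40.5 CPM and 62.8 against 32.8 CPM, and RPS27L, another paralog, the lower one, at 181 against 340 CPM, 255 against 392 CPM and 95.6 against 177 CPM. None of 75 oxidative phosphorylation genes reached 1.5-fold in any line. Chaperones had 6 of 18, 7 of 20 and 7 of 19 genes higher. HSP90AA1, the inducible cytosolic HSP90, was at 2782 against 1069 CPM, 2814 against 1366 CPM and 2870 against 1104 CPM. Hypoxia and glycolysis genes had medians of -0.07, -0.03 and 0.02, with 6 of 25, 2 of 24 and 2 of 23 measured genes lower and none higher. NDRG1, a stress-responsive gene of that list, was lower in each line (log2 ratios -0.97, -1.04 and -0.68), and EGLN3, an oxygen-sensing hydroxylase, had a log2 ratio of -2.03 in C1-sgEED. Immediate-early genes had medians of -0.38, -0.08 and -0.03, with FOSL1 higher in each line (log2 ratios 0.75, 0.68 and 0.78).

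Gene by gene, the contrast was compared between the 3 lines, which share no cells but come from 1 library and are scaled in the same way. Across genes, Pearson's r of the log2 ratios was 0.862 between C1-sgControl and C1-sgEED (6953 genes), 0.841 between C1-sgControl and C1-sgKMT2D (6735 genes) and 0.840 between the knockouts (6800 genes), and Spearman's rho was 0.696, 0.638 and 0.651. Genes are not independent replicates, so this is a description. Of 1231 genes higher in C1-sgControl, 575 (46.7%) were among the 844 higher in C1-sgEED, of which they are 68.1%. Of 1194 higher in C1-sgControl, 573 (48.0%) were among the 897 higher in C1-sgKMT2D, or 63.9% of these. Of the genes lower in C1-sgControl, 207 of 354 were lower in C1-sgEED and 113 of 304 in C1-sgKMT2D. Among all genes measured in both lines, 844 of 6953 were higher and 403 lower in C1-sgEED. In C1-sgKMT2D 897 of 6735 were higher and 217 lower. The overlaps and the counts of opposite genes are to be read against these. No gene was higher in C1-sgControl and lower in C1-sgEED, and none the reverse. Between C1-sgControl and C1-sgKMT2D 4 were higher in the first and lower in the second and 2 the reverse, and 1 was lower in C1-sgEED and higher in C1-sgKMT2D.

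**Figure D5:**
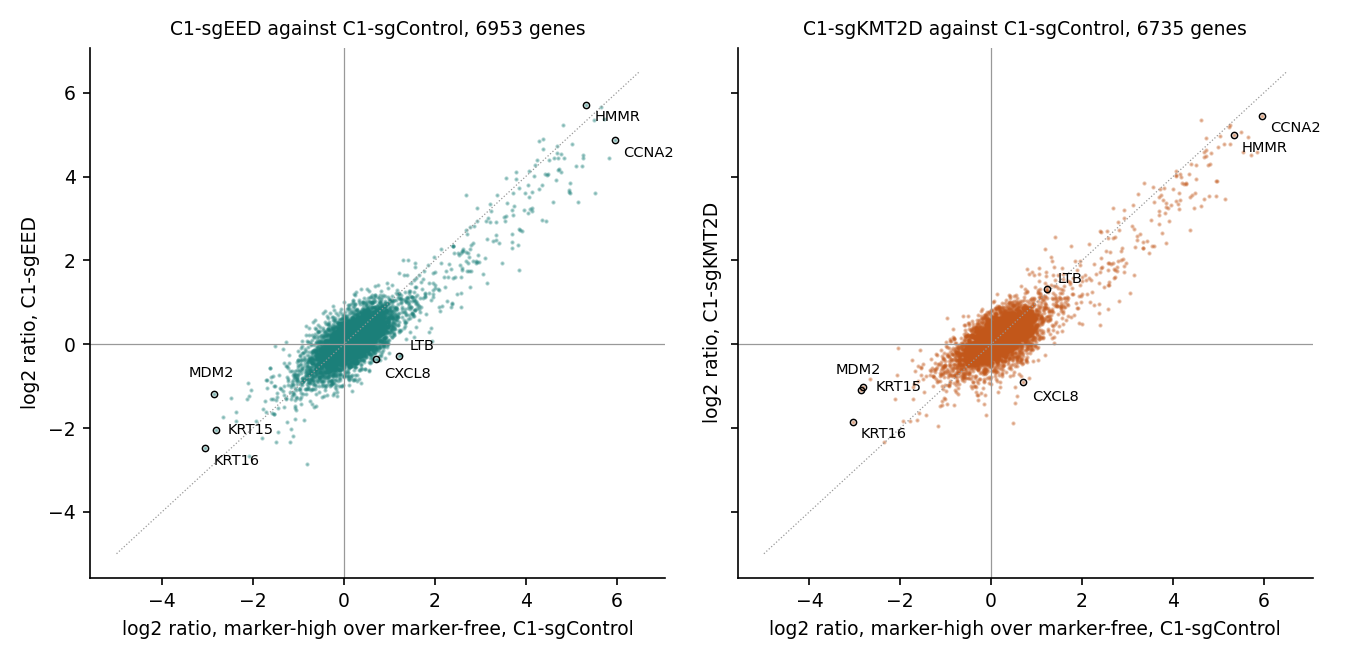
Log2 ratio of marker-high over marker-free cells in C1-sgControl (horizontal axis) against C1-sgEED (left) and C1-sgKMT2D (right), 1 point per gene measured in both lines. The dotted line marks equal ratios. CCNA2 and HMMR lie top right in both panels, MDM2 and KRT15 lie above the dotted line with smaller decreases in the knockouts, and CXCL8 lies at 0.71 in C1-sgControl and -0.91 in C1-sgKMT2D.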

How the data were processed

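Gene expression and hashtags were read in 1 pooled 10x Genomics library pair. The deposited matrix holds UMI counts made by the authors with Cell Ranger 3.0.2 on GRCh38, per the submitters' processing notes, for 33694 genes and 4 hashtags in 10336 barcodes. A cell belongs to a line where its top hashtag had at least 150 UMIs and 10 times those of the next (9278 barcodes). Cells of at least 500 genes, at most 20% mitochondrial UMIs and at least 2000 UMIs were kept, 6025 of them in the 3 lines. No doublet caller was run: barcodes without a single hashtag (1058) were removed, and doublets within a line remain.

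UMIs were summed per line and group and scaled to CPM. Log2 ratios used a pseudocount of 1 CPM and are smaller than the true ratio for low genes. A gene was measured from a mean of 10 CPM and called at 1.5-fold. With 1 sample per line there is no test. Intervals (95%) are exact Poisson for levels, exact conditional binomial for ratios and exact Clopper-Pearson for shares, and cover counting error only. The groups hold 2341809 to 4830257 gene UMIs. Genes were named mainly by 1 rule: per line the 10 highest and 10 lowest ratios from 20 CPM, and list members from 10 CPM. TXNIP, one of the genes lower in all 3 lines, was named outside this rule. The members and the lists were chosen with earlier results of these data known. The keratins and the CDC20 split were chosen after the values were seen. 1 gene and a list named for it are not reported here. Other scalings, floors, pseudocounts, bounds of C, depth limits and filters were tried. The calculation was tested on simulated counts. Gene positions are those of GENCODE 29 on GRCh38. Tools were Python 3.11.15, numpy 2.4.6, scipy 1.17.1, pandas 2.3.3, matplotlib 3.10.9 and edgeR 4.0.16, the last for TMM factors only.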

Additional observations from a re-analysis of the deposited data

Results flagged for a closer look

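Cells with hashtag 2, which no label ties to a line, were left out of all comparisons. Of 1855 such cells that passed the same limits, 477 had C of 5 or more, a share of 25.7% (23.7 to 27.8%).

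CXCL8 and CCL20, both chemokines, were at least 1.5-fold higher in marker-high cells of C1-sgControl and at least 1.5-fold lower in those of C1-sgKMT2D. The log2 ratios of CXCL8 were 0.71 and -0.91, a difference of 1.62, and those of CCL20 were 0.65 and -0.76, a difference of 1.42. The differences were not tested, as each line is 1 sample. In C1-sgKMT2D the log2 ratio of CXCL8 was -0.33 with marker-free cells weighted by depth and -0.14 in the epithelial range. In C1-sgControl, median centring took the log2 ratio of CXCL8 to 0.52 and that of CCL20 to 0.47, both under 1.5-fold.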

How the results depend on the processing

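No paired analysis was possible because each line is 1 sample with no replicate number, and no sample could be left out in turn. Of 140 alternative counts of genes, 114 stayed within 1.5 times the reported one. Genes higher in C1-sgControl numbered 727 after median centring, 725 with TMM, 351 with a floor of 50 CPM and 2572 with no floor. Lower there were 729, 724, 111 and 1731, with 658 without mitochondrial and ribosomal genes and 630 with a floor of 5 CPM. In C1-sgEED a floor of 50 CPM gave 264 higher and 111 lower, no floor 2057 and 2006, and 775 were lower both without mitochondrial and ribosomal genes and with a floor of 5 CPM. In C1-sgKMT2D median centring gave 514 higher and 520 lower, a floor of 50 CPM 257 and 68, no floor 1910 and 1519, and the mesenchymal range alone 1545 and 473, with 572 lower without mitochondrial and ribosomal genes and 480 with a floor of 5 CPM. Without mitochondrial and ribosomal genes the share of calls that were higher went from 76.1%, 66.3% and 76.7% to 66.1%, 53.7% and 59.1%. The share of marker-high cells in C1-sgControl was 25.3% with C of 3 or more, 12.3% with 10 or more, 8.80% thinned to 2000 and 21.7% thinned to 5000 UMIs. In C1-sgEED these were 46.3%, 21.6%, 21.2% and 47.1%, and in C1-sgKMT2D 34.6%, 18.2%, 13.3% and 30.4%, with 29.5% at no more than 10% mitochondrial UMIs and 24.5% without the deepest 5% of cells. Of 1522 list medians, 1484 stayed on the same side of 1.5-fold, whatever the size of the shift. The spindle median of C1-sgControl, reported as 4.08, ran from 2.94 to 4.49 over the alternatives. Of 8164 gene ratios, 7409 moved by less than the spread used for them. A pair of gene ratios reversed, both in C1-sgKMT2D: MGP at 0.65 among cells of 4000 to 10000 UMIs and LTB at -0.41 in the mesenchymal range. The cause of these shifts was not tested. Depth limits the marker-free levels of the mitotic genes, many of which rest on few UMIs.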

Other observations

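In the cells with hashtag 2, split by the same rule, 1082 of 6648 measured genes were at least 1.5-fold higher in marker-high cells and 271 lower. All 35 measured spindle genes were higher (median log2 ratio 3.70), as were 25 of 27 mitotic kinases and cyclins (3.50) and 34 of 49 G1/S genes (0.87). Of these, 24 spindle, 16 kinase and 14 G1/S genes passed the floor through marker-high cells alone, so the counts are partly set by it. HMMR was at 118 against 4.10 CPM and CCNA2 at 127 against 2.82 CPM. On the lower side, 9 of 38 epithelial, 13 of 26 mesenchymal and 4 of 5 squamous genes were lower. KRT16 was at 63.6 against 227 CPM and MDM2 at 43.1 against 75.1 CPM. CXCL8 was at 118 against 70.5 CPM and CCL20 at 49.9 against 55.9 CPM.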
